A study of Nothobranchius furzeri with 19 samples.

Results

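The genes described here were the 200 of 26740 genes of the turquoise killifish *Nothobranchius furzeri* whose transcripts stood highest in trunks, at nearly the same level at hatching (0 days post hatching, dph) and at 3 dph, above whole embryos at 10 days post fertilization (dpf) and above adult ovary and testis. The members were chosen from the measured values themselves. Read counts were scaled to the total of each library (CPM, counts per 1e+06 counts) and turned into log2(CPM + 1), and stages were averaged over both sexes. A gene qualified where its 0 and 3 dph means differed by less than 1, and where the lower of these means exceeded the highest of the 10 dpf mean, the ovary value and the testis value by at least 1. This excess is called the margin here. Of the 26740 genes, 633 met both limits, and the 200 with the largest margin are the members. The levels at 10 dpf, in trunks and in gonads are therefore a description and were not tested, whereas the contrast of the sexes was not used to choose the members, although the rule left out genes with high gonad levels.

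RNA-Seq was performed on 19 libraries of the strain GRZ, for which the labels name no treatment. The groups were 10 dpf whole embryos (3 female, 3 male), 0 dph trunks (2 female, 3 male), 3 dph trunks (3 female, 3 male), 1 ovary and 1 testis from fish aged 3 months. Each adult organ was a single library and has no replicate. The labels do not say whether replicates were separate animals or pools, so p-values measure the spread between these libraries, which may be technical. Library totals ranged from 11717979 to 31493908 counts.

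After hatching, the trunk of a larval fish holds the liver, intestine, kidney, axial muscle and skin, along with the gonad. The liver secretes clotting factors and other plasma proteins, the intestinal epithelium takes over digestion and absorption as the yolk is used up, and the skin forms a barrier of keratins, tight junctions and surface proteases.

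The labelled tissues were compared with lists of marker genes. The 19 measured genes of the eye list (photoreceptor and lens genes) summed to 197 to 649 CPM in 10 dpf embryos, 4.76 to 10.7 CPM in 0 dph trunks and 8.58 to 12.7 CPM in 3 dph trunks, whose levels lay far below those of the embryos. The 13 measured gonad and germ cell genes summed to 18.0 to 193 CPM in trunks, against 938 CPM in the ovary and 2545 CPM in the testis. Stage and dissection changed together between 10 dpf and 0 dph and cannot be told apart. In bulk tissue, fewer cells of a type and less RNA per cell cannot be told apart either.

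A symbol was used here for 28 of the 200 members (14%) and for 10.6% of all genes, so most members are named by identifier only. Of these 28, 21 had a gene symbol and 7 a clone name. Of the members, 17 stood in a marker list: 5 of the 27 measured liver genes, 6 of the 22 intestine genes, 4 of the 23 skin genes, 1 of the 28 muscle genes and 1 of the 24 immune and blood genes. No member stood in the lists for connective tissue, kidney, neuron, eye or gonad. Both limits were met by 6 liver, 6 intestine, 6 skin, 7 muscle and 2 immune and blood genes, so most measured genes of each list did not qualify.

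At 10 dpf the median member had a level of 1.72 on the log2(CPM + 1) scale. Medians in trunks were 5.63 at 0 dph and 5.55 at 3 dph, and those of the adult organs were 0.47 in the ovary and 0.68 in the testis. The corresponding medians over all genes with a count were 3.17 at 10 dpf, 2.56 at 0 dph, 2.54 at 3 dph, 2.34 in the ovary and 2.80 in the testis.

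**Figure D1:**
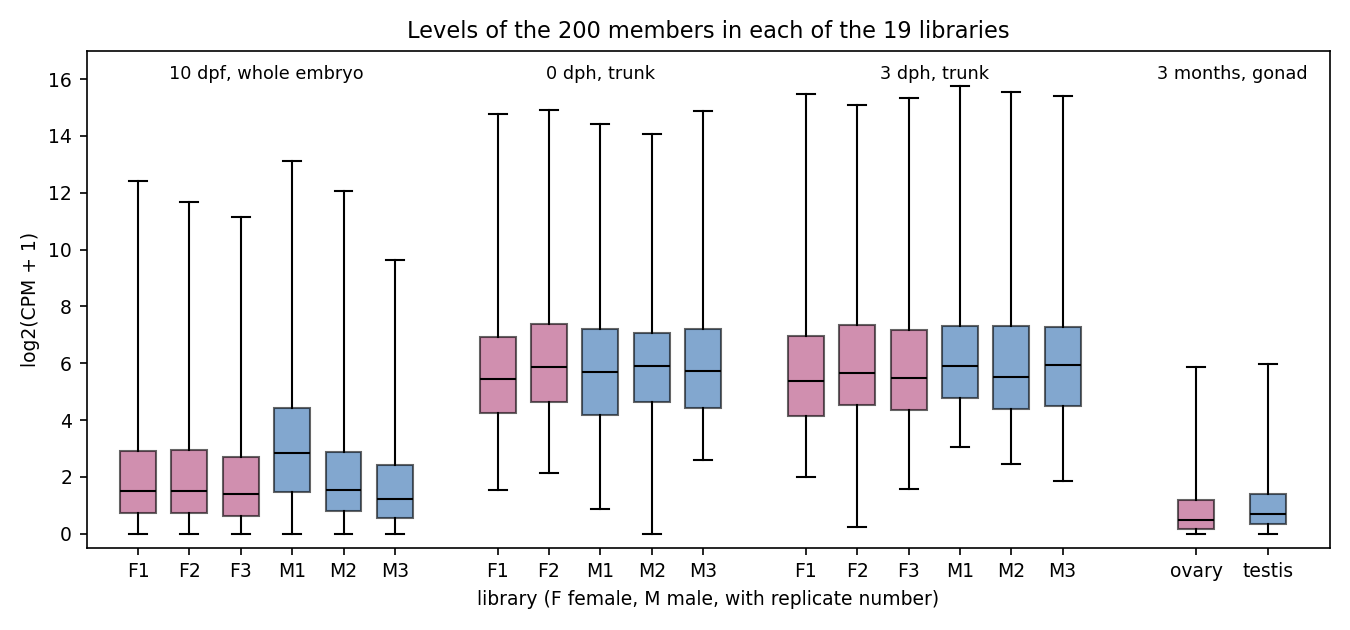
Levels of the 200 members in each library on the log2(CPM + 1) scale; the box spans the quartiles, the line is the median and the whiskers reach the lowest and highest member, with females in pink and males in blue. Medians of the 11 trunk libraries lie between 5.37 and 5.95, those of the 10 dpf libraries between 1.23 and 2.85, with male replicate 1 highest, and those of the ovary and testis at 0.47 and 0.68.

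The members took up 0.249 to 2.68% of all counts at 10 dpf, 7.76 to 11.5% at 0 dph and 11 to 15.6% at 3 dph. They made up 0.0452% in the ovary and 0.0509% in the testis. The 5 members with the most counts carried most of this, with 4.63 to 7.46% of the counts at 0 dph and 7.74 to 11.4% at 3 dph. The most counted was Nfu_g_1_002091. At 10 dpf it ranged from 795 to 8980 CPM (median 3760), so it was well above 1 CPM in every embryo. It had 28050 and 30711 CPM in female and 20182, 17177 and 29819 CPM in male 0 dph trunks, 57.0 CPM in the ovary and 61.4 CPM in the testis.

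**Figure D2:**
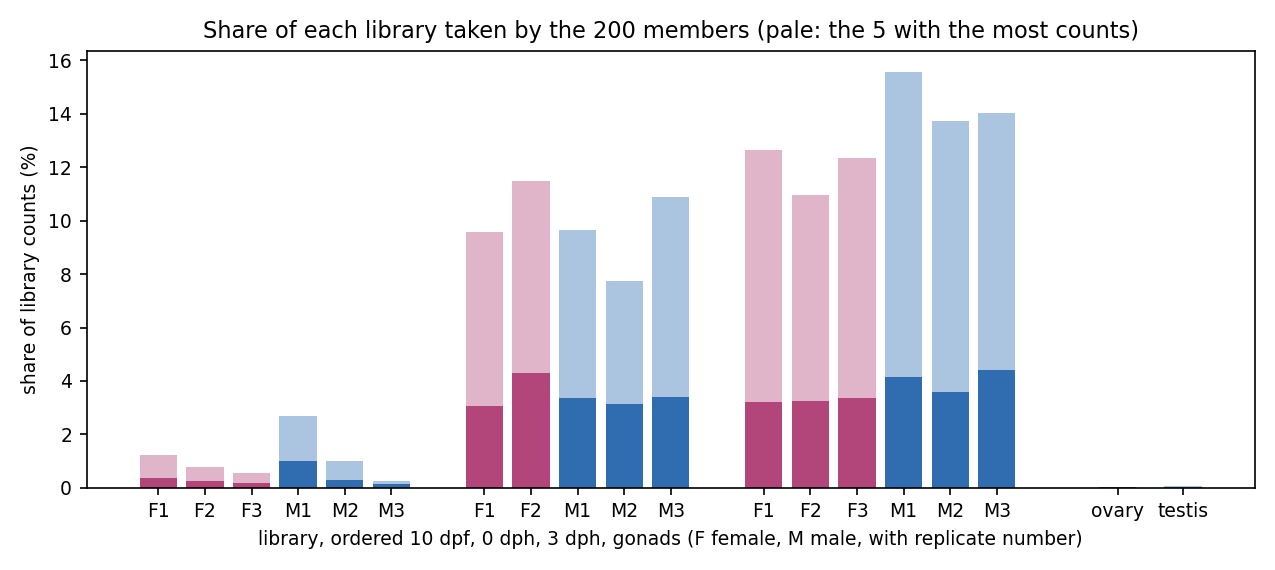
Share of each library's counts taken by the 200 members, in percent; the pale upper part of a bar is the 5 members with the most counts, the dark lower part the other members, and colours mark females (pink) and males (blue). The shares are 0.249 to 2.68% at 10 dpf, 7.76 to 11.5% at 0 dph and 11 to 15.6% at 3 dph, and the ovary and testis bars are close to 0.

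The difference between 0 dph and 10 dpf ranged from 2.38 to 9.42 on the log2(CPM + 1) scale, with a median of 3.53. As a ratio of mean CPM, 197 members were 4.39- to 716-fold higher at 0 dph, with a median of 15.8-fold. Of these, 143 exceeded 10-fold and 14 exceeded 100-fold. With the other 3 members at their lower bound, the median over all 200 was 15.9-fold. In 175 members (87.5%), chosen for a difference of this kind, the lowest of the 11 trunk libraries was above the highest of the 6 embryo libraries, as in 7.83% of all genes with a count. Over all genes with a count, the median difference between 0 dph and 10 dpf was −0.33, and it was −0.01 after median-of-ratios or TMM scaling, under which the members' median was 4.02 and 4.05.

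The 3 other members had at most 3 counts in every 10 dpf library, and their folds are set against this floor of 3 counts per library. Nfu_g_1_018450 had no read in any of the 6 embryo libraries. Its level was 17.7 and 35.7 CPM in female and 10.1, 11.4 and 16 CPM in male 0 dph trunks, at least 107-fold higher than the floor. *chia.6*, an acidic chitinase of the kind that digests dietary chitin, was at least 193-fold higher, and Nfu_g_1_010310 at least 62.6-fold higher.

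The 10 members with the largest margin had margins between 5.45 and 8.46. The first, Nfu_g_1_019706, ranged from 18.1 to 32.3 CPM at 10 dpf (median 21.5). It reached 14088 and 13764 CPM in female and 21700, 12443 and 18256 CPM in male 0 dph trunks, and 20007 to 30654 CPM at 3 dph (median 26600). The ovary had 29.2 CPM and the testis 43.6 CPM. No trunk library overlapped any embryo or gonad library.

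Nfu_g_1_007316 followed, with 0.953 to 1.73 CPM at 10 dpf and 360 and 705 CPM in female and 1074, 1649 and 1439 CPM in male 0 dph trunks. Nfu_g_1_005085 had 0.193 to 0.481 CPM at 10 dpf and 127 to 355 CPM at 0 dph. Among the other 7, the ratio of mean CPM at 0 dph to 10 dpf was 186 for Nfu_g_1_001100 (clone name zgc:172086), 237 for Nfu_g_1_002474, 88.0 for Nfu_g_1_009078, 40.8 for Nfu_g_1_014183, 401 for Nfu_g_1_021975, 128 for Nfu_g_1_015194 and 53.5 for Nfu_g_1_020208. Of these 10, only Nfu_g_1_014183 had a gene symbol, *KRT23 (5 of 15)*, an epithelial keratin.

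Liver genes formed a first group of named members: *fga* and *fgb* (chains of fibrinogen, which is polymerised into the clot), *f2* (prothrombin), *serpinf2b* (an inhibitor of plasmin) and *ftcd* (a histidine and folate enzyme). *fga* ranged from 1.80 to 12.2 CPM at 10 dpf, with a median of 2.38. It had 102 and 140 CPM in female and 92.8, 86.4 and 131 CPM in male 0 dph trunks, and 84.2 to 183 CPM at 3 dph (median 122). Its ovary and testis values were 0.271 and 1.88 CPM. The trunk libraries of both ages overlapped each other, and the highest embryo library, male replicate 1, was far below them.

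*f2* had 3.14 to 21.1 CPM at 10 dpf (median 3.25). In 0 dph trunks it had 75 and 102 CPM in females and 71.5, 65.3 and 74.2 CPM in males, and at 3 dph 105 to 202 CPM (median 140). At 4.52 CPM the testis was above the ovary, which had 0.155 CPM. Every 3 dph library exceeded every 0 dph library, and the difference between the ages, 0.88, was near the limit, as was that of *fgb*, 0.99.

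*ftcd* was lower at the later trunk age. It had 11.7 to 29.0 CPM at 10 dpf, 208 and 314 CPM in female and 257, 208 and 257 CPM in male 0 dph trunks, and 123 to 181 CPM at 3 dph, a difference of −0.72 between 3 and 0 dph. *serpinf2b* differed by 0.40 and *fga* by 0.19, so the 5 liver genes spanned nearly the whole permitted range. The liver list as a whole summed to 137 to 459 CPM at 10 dpf, 2053 to 3748 CPM at 0 dph and 4457 to 6287 CPM at 3 dph. Of its 27 measured genes, 6 met both limits. Among the others, *hnf4a* fell from 8.58 at 0 dph to 5.03 at 3 dph on the log2(CPM + 1) scale. *serpina1* rose from 9.60 to 11.1 and *fabp10a* from 8.42 to 10.1, and both are part of the sum. *APCS* stood at 5.16 in the testis, against 1.56 at 0 dph and 3.32 at 3 dph.

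The intestinal members were *cdh17* (a cadherin of the intestinal epithelium), *asah2* (the neutral ceramidase of the brush border), *aqp10a* (an aquaglyceroporin), *chia.6* and 2 identifiers named *chia.3*, another chitinase. Of the 22 measured intestine genes, 4 others met the margin but were higher at 0 dph by at least 1. *FOLH1* stood at 6.53 in the testis, against 6.15 at 0 dph and 4.50 at 3 dph on the log2(CPM + 1) scale. The list summed to 754 to 1823 CPM at 0 dph and 394 to 771 CPM at 3 dph. It summed to 155 CPM in the ovary and 161 CPM in the testis. *cdh17* had 4.47 to 17.4 CPM at 10 dpf (median 7.95). It reached 115 and 127 CPM in female and 153, 219 and 204 CPM in male 0 dph trunks. At 3 dph it had 79.0, 60.9 and 68.9 CPM in females and 104, 92.2 and 138 CPM in males, and the ovary and testis had 0.386 and 2.82 CPM. At each age the male trunks lay above the female trunks. These values are for Nfu_g_1_001323. A further identifier with this symbol, Nfu_g_1_001201, was not a member. Its level fell from 6.17 at 0 dph to 3.39 at 3 dph on the log2(CPM + 1) scale.

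Few or no counts at 10 dpf were found for *chia.6* and *chia.3* (Nfu_g_1_001889), while *chia.3* (Nfu_g_1_001838) had 12 to 33 counts per library. *chia.6* had 0.0616 to 0.174 CPM at 10 dpf, which is 1 to 3 counts per library. It had 21.0 and 3.36 CPM in female and 33.7, 96.6 and 9.19 CPM in male 0 dph trunks, a spread of more than 10-fold within a single stage. *chia.3* (Nfu_g_1_001889) had 0 to 0.201 CPM at 10 dpf and 9.44 to 58.0 CPM at 0 dph, and *chia.3* (Nfu_g_1_001838) had 0.667 to 1.76 CPM at 10 dpf and 8.69 to 14.9 CPM at 0 dph. Where copies share sequence the counting can divide reads between them, and no sequence was compared here. The values of the chitinase identifiers are therefore uncertain. *chia.3* (Nfu_g_1_001861) and *chia.6* (Nfu_g_1_001997) were not members. From 0 to 3 dph they fell from 7.32 to 5.29 and from 7.45 to 5.53 on the log2(CPM + 1) scale.

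Skin members were *KRT23 (5 of 15)*, the surface serine proteases *tmprss13a* and *tmprss4a*, and *cldni*, a claudin of tight junctions. Of the 23 measured skin genes, 6 met both limits. Among the others, *krt5* (Nfu_g_1_000844) stood at 11.7 in the ovary, against 2.38 at 0 dph and 5.79 at 3 dph on the log2(CPM + 1) scale. *krt18* (Nfu_g_1_001656) fell from 9.66 at 0 dph to 7.55 at 3 dph. *KRT23 (5 of 15)* had 2.44 to 46.2 CPM at 10 dpf (median 6.59). It had 650 and 920 CPM in female and 277, 335 and 539 CPM in male 0 dph trunks, and 627 to 1357 CPM at 3 dph (median 998). A further identifier with the same symbol, Nfu_g_1_017018, was not a member. Its levels were 8.41 at 10 dpf, 10.7 at 0 dph and 12.5 at 3 dph on the log2(CPM + 1) scale. *cldni* had 32.9 and 18.2 CPM in female 0 dph trunks, against 0.872, 14.3 and 15.6 CPM in male ones. The 0.872 CPM of male replicate 1 lay below the 12.8 CPM of the highest embryo.

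Male replicate 1 at 0 dph was low for other skin members too. It had 7.03 CPM of *tmprss13a*, against 10.8 to 22.4 CPM in the other 4 libraries, and 8.92 CPM of *tmprss4a*, against 11 to 20.01 CPM. *ceacam1*, a cell adhesion molecule in none of the lists, had 1.03 CPM there, against 18.5 to 47.2 CPM in the others. The skin list summed to 2782 CPM in that library and to 7705 to 11083 CPM in the other 4, and the part of this in the members' values was not tested.

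*jph2*, a junctophilin that links the surface membrane of muscle to the sarcoplasmic reticulum, was the only muscle member. Its embryo values ranged from 0.643 to 49.3 CPM (median 3.52), the upper end again in male replicate 1. The 0 dph trunks had 82.5 and 59.3 CPM in females and 31.2, 74.7 and 70.1 CPM in males, so the highest embryo overlapped the lowest trunk. *rh50*, a Rhesus glycoprotein related to ammonia transporters, had 0.0534 to 0.501 CPM at 10 dpf. It had 17.7 and 22.3 CPM in female and 8.10, 42.4 and 34.8 CPM in male 0 dph trunks.

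The remaining members with a gene symbol were *cx32.3*, a connexin of gap junctions, *msmbl* and *nolc1*, a nucleolar phosphoprotein. *cx32.3* had 0.428 to 8.07 CPM at 10 dpf and 58.3 to 137 CPM at 0 dph. *msmbl* had 0.481 to 6.92 CPM at 10 dpf and 12.8 to 35.6 CPM at 0 dph. *nolc1* had 6.55 to 151 CPM at 10 dpf, the 151 CPM again in male replicate 1, and 180 to 296 CPM at 0 dph. In each of these 3 genes the highest embryo was that library.

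**Figure D3:**
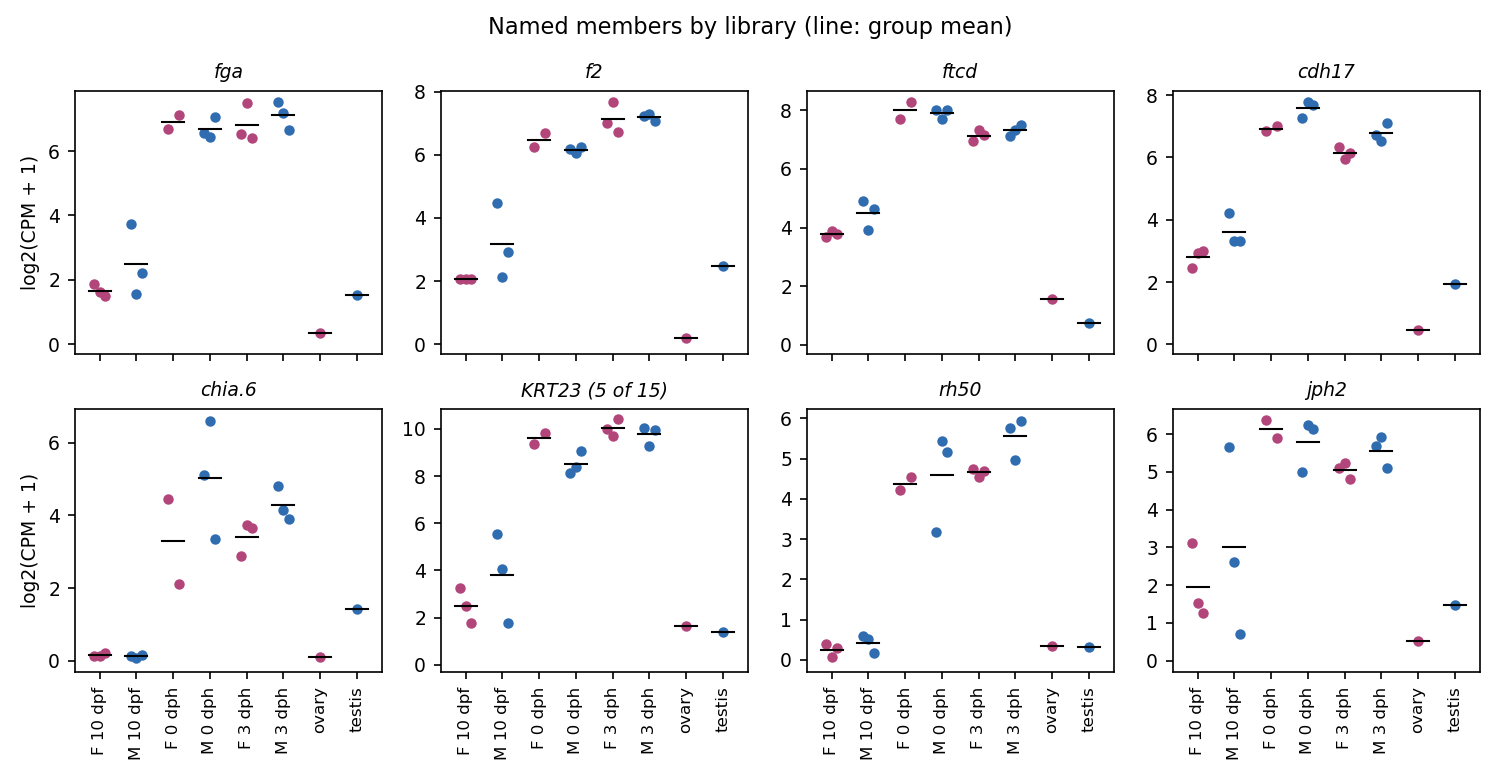
Levels of 8 named members on the log2(CPM + 1) scale in females (pink) and males (blue); each point is a library and the line is the mean of its group, and each panel has its own vertical scale. *fga*, *f2*, *ftcd* and *cdh17* stand apart from embryos and gonads in every trunk library, while *jph2* has an embryo of 49.3 CPM above a trunk of 31.2 CPM.

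Some members lay near each other in the genome. By symbol, 15 members matched a single gene of the RefSeq annotation of assembly NfurGRZ-RIMD1. On it, *tmprss13a* and *tmprss4a* were separated by 1 protein-coding gene, *cdh17* and *aqp10a* by 3, *f2* and *ftcd* by 6, and *fga* and *fgb* by 10. The next pair, si:ch73-74h11.1 and *asah2*, was separated by 91. The match of *cdh17* is uncertain, since Nfu_g_1_001201 has the same symbol. Whether members lie nearer each other than other genes was not tested.

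Embryo male replicate 1 stood apart from the other 5 embryos in these genes. Its median member level was 2.85, against 1.23 to 1.52 in the others, and it held the highest value of the 6 in 160 of the 200 members (80%), against 26.4% of the 24547 genes with at least 10 counts. Its excess over the mean of the other 5 was 1.22 in the median member and −0.04 in the median gene, and 61.5% of the members exceeded that mean by at least 1, against 7.57% of all genes. The liver list summed to 459 CPM in this library and to 137 to 175 CPM in the other 5, and the skin list to 5734 CPM, against 971 to 1955 CPM. Without it, the median difference between 0 dph and 10 dpf was 3.82, and 187 of the 200 genes remained members.

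Adult gonads held few reads of these genes. In the ovary 14 members had no count, in the testis 10, and in both 2. A count of 0 allows up to 3 counts, or 0.116 CPM in the ovary and 0.256 CPM in the testis. At most 3 counts were found for 52 members in the ovary, 57 in the testis and 25 in both. The limit above is for members at 0 counts. Those with some counts, but at most 3, were detected at a level too low to measure well at this depth.

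Above 1 CPM there were 63 members in the ovary and 77 in the testis, and above 10 CPM 8 and 12. In all, 15 members passed 10 CPM in either organ, and none of them had a symbol. They included Nfu_g_1_022977, with 380 to 980 CPM in 0 dph trunks, against 54.0 CPM in the ovary and 20.6 CPM in the testis. It had the second highest ovary value after Nfu_g_1_002091, and both were named after their values were seen. *asah2* had 7.27 CPM in the ovary, against 1.02 CPM in the testis, more than in any embryo (2.01 to 4.17 CPM). The margin was set by the 10 dpf mean in 147 members, by the ovary in 28 and by the testis in 25.

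Between 0 and 3 dph, 103 members were higher and 97 lower by their stage means, with a median difference of 0.03. Of all members, 64 lay within 0.25 and 114 within 0.5. Just inside the limit of 1 stood *chia.3* (Nfu_g_1_001838), with 0.997, and Nfu_g_1_017438, with −0.999. Nfu_g_1_012556, with 1.004, and Nfu_g_1_016861, with −1.01, stood just outside it. By margin, Nfu_g_1_022108 and Nfu_g_1_007795 came last among the members, with 2.35 each. Nfu_g_1_021303 and Nfu_g_1_011932 came next, with 2.34 each.

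A stable mean over both sexes did not always hold for each sex. From 0 to 3 dph, 23 members differed by at least 1 in females (4 higher, 19 lower at 3 dph) and 25 in males (21 higher, 4 lower). In 60 members the sexes went in opposite directions, and in 140 in the same. The rule limited the mean change over both sexes and the shares over all genes were not determined, so these counts are a description. The median difference was −0.10 in females and 0.16 in males.

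The extreme case was Nfu_g_1_010843, picked after its values were seen, with a difference of −3.11 in females and 3.13 in males. Its 0 dph trunks had 118 and 132 CPM in females and 9.79, 0 and 76.4 CPM in males. At 3 dph it had 50.6, 0.172 and 50.3 CPM in females and 80.3, 96.1 and 69.7 CPM in males. A single male library at 0 dph and a single female library at 3 dph were thus at or near 0 while their replicates were not, and it was the only member with a trunk library at 0 counts.

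**Figure D4:**
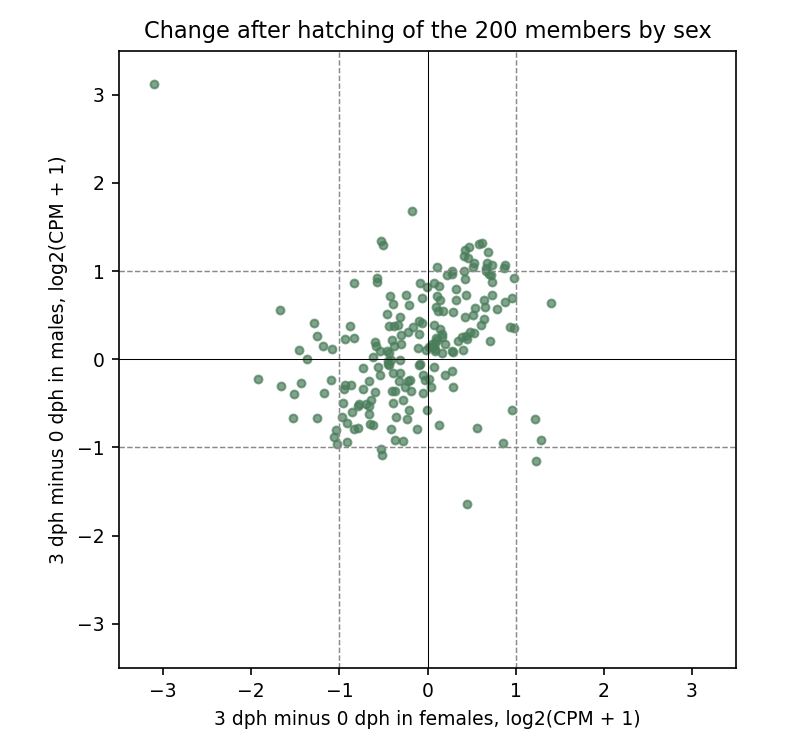
Difference between 3 and 0 dph on the log2(CPM + 1) scale in females (horizontal) and males (vertical), with a point for each of the 200 members and dashed lines at the limit of 1 that applied to the mean over both sexes. The medians are −0.10 in females and 0.16 in males, and the point at the upper left is Nfu_g_1_010843 at −3.11 and 3.13.

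Sex differences were tested within each stage with DESeq2, with p-values adjusted by Benjamini-Hochberg over all genes and calls at an adjusted p under 0.05. At 10 dpf no member was called in either direction. DESeq2 called 0.173% of all genes female-higher and 0.0544% male-higher at this stage. Unadjusted p was under 0.05 for 41 of the 163 tested members with DESeq2, against 1799 of 20203 genes. With edgeR, which also called 0 members, it was so for 17 of 164, against 1341 of 20160 genes. The smallest adjusted p was 0.0862 with DESeq2 and 0.656 with edgeR. The log2 fold change was below 0, meaning lower in females, in 170 members, with a median of −0.96.

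This lean rested on embryo male replicate 1. Without it the median was 0.07, with 110 members above 0 and 89 below, and 2 members were called female-higher, against 0.032% of all genes. Without male replicate 2, and likewise without male replicate 3, 7 members were called male-higher, against 0.307% and 1.37% of all genes. Embryos with the same replicate number were taken as pairs because their deviations correlated, while the labels give no pairing. With the replicate number as a block 0 members were female-higher and 3 male-higher, against 0.522% and 0.224% of all genes.

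At 0 dph, 4 members were higher in females and 17 in males with DESeq2, that is 2% and 8.5% of the members, against 2.11% and 1.2% of all genes. The edgeR test called 0 members in either direction, against 0.13% of all genes female-higher and 0.035% male-higher, with a smallest adjusted p of 0.0636. Unadjusted p in it was under 0.05 for 52 of 200 members, against 2500 of 19997 genes. The median log2 fold change was −0.11 in members, or 0.03 without female replicate 1, and 0.01 in all genes. Among the 2439 tested genes whose lower trunk mean exceeded both gonads by at least 1, members included, 1.23% were female-higher and 3.98% male-higher at 0 dph, a set formed after the calls were seen.

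The counts at 0 dph moved with single libraries, and so did the shares of all genes. The male-higher count was 4 without female replicate 1 (0.517% of all genes), 28 without male replicate 1 (3.01%), 6 without male replicate 2 (0.502%) and 6 without male replicate 3 (0.604%). The female-higher count was 6 without female replicate 1 (0.963%), 1 without female replicate 2 (1.61%) and 2 without male replicate 2 (1.34%). Without 1 of the 2 female libraries a single female is set against 3 males, and it is then assumed to vary as they do.

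Higher in females at 0 dph were Nfu_g_1_010150, Nfu_g_1_010079, Nfu_g_1_007249 and Nfu_g_1_009685. Nfu_g_1_010150 had 211 and 148 CPM in female trunks and 53.2, 67.6 and 67.6 CPM in male trunks, with a log2 fold change of 1.31 ± 0.26 (SE) and an adjusted p of 9.8e-05 in DESeq2. The groups did not overlap. Nfu_g_1_010079 had 57.8 and 60.3 CPM in females and 21.0, 24.6 and 27.6 CPM in males. Log2 fold changes of these 4 genes ranged from 1.05 to 1.31, and without female replicate 1 they ranged from 0.91 to 1.27, with none of the 4 called (DESeq2 adjusted p-values from 0.12 to 0.52).

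Higher in males at 0 dph were, with the smallest adjusted p, Nfu_g_1_010414, a pair of identifiers with the clone name si:ch73-103b2.3, Nfu_g_1_021459 and Nfu_g_1_007316. Nfu_g_1_010414 had 5.03 and 9.94 CPM in females and 27.9, 29.4 and 21.5 CPM in males, with a log2 fold change of −1.98 ± 0.37 (SE) and a DESeq2 adjusted p of 2.3e-05. It was called without each library in turn.

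The si:ch73-103b2.3 pair was listed under 2 identifiers. Nfu_g_1_001111 had 5.72 and 16.3 CPM in females and 49.6, 66.7 and 29.3 CPM in males, and Nfu_g_1_001125 had 5.26 and 18.4 CPM in females and 48.9, 75.5 and 31.2 CPM in males. Their log2 fold changes were −2.29 ± 0.49 and −2.27 ± 0.53 (SE). At 3 dph these were 0.00 and −0.32, and the sexes overlapped. Since the copies share a name, reads may be split between them and they cannot be taken as independent genes.

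Nfu_g_1_021459 had 10.3 and 30.6 CPM in females and 96.5, 162 and 50.5 CPM in males, with the largest difference of the called members, −2.47 ± 0.54 (SE). Nfu_g_1_007316, the member with the second largest margin, differed by −1.56 ± 0.37. Without male replicate 1, the adjusted p of DESeq2 was 0.16 for Nfu_g_1_021459 and 0.19 for Nfu_g_1_001125, and without female replicate 1 it was 0.13 for Nfu_g_1_007316. The 17 male-higher members included the intestinal *aqp10a* and *cdh17*, at −1.25 and −0.86. The call of *aqp10a* was lost without female replicate 1, male replicate 2 or male replicate 3 (adjusted p = 0.67, 0.22 and 0.28 in DESeq2).

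At 3 dph, 32 members (16%) were higher in males with DESeq2 and 0 in females, whereas 5.19% of all genes were male-higher and 13.7% female-higher. With DESeq2, unadjusted p was under 0.05 for 61 of the 200 members, 2 of them female-higher, against 6537 of 21772 genes. The rule bears on this contrast, since it left out genes near their gonad level, and 7 of 12 tested genes of the gonad and germ cell list were female-higher. Among the 2439 tested genes above both gonads by at least 1, 0.082% were female-higher and 17.9% male-higher, close to the members' own 0 and 16%. In the edgeR test 9 members (4.5%) were male-higher, all of them among the 32. Shares were 3.45% of all genes and 10% of those above both gonads. The same test called 0 members female-higher, against 15.6% of all genes. Its unadjusted p was under 0.05 for 47 of the 200 members, 4 of them female-higher, against 6925 of 20557 genes. The median log2 fold change was −0.28 in members and −0.08 in all genes, and 164 members were below 0. In 15 of the 32 the female and male libraries overlapped in CPM. The share of such overlap among all genes called male-higher was not determined.

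The male-higher count at 3 dph was 8 without female replicate 1 (2.18% of all genes), 14 without female replicate 2 (2.92%), 9 without male replicate 1 (3.34%) and 50 without male replicate 2 (6.57%). The female-higher count was 6 without male replicate 1 (12.8%), 1 without female replicate 1 (10.3%) and 1 without male replicate 3 (11.6%). The share of the library's counts taken by all members was 11 to 12.7% in female and 13.7 to 15.6% in male 3 dph trunks, with no overlap. Without the 5 most counted members it was 3.21 to 3.37% in females and 3.59 to 4.43% in males.

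The 5 male-higher members with the smallest adjusted p at 3 dph were each called without every library in turn. Nfu_g_1_019095 (clone name si:ch211-8c17.8) had 20.7, 18.8 and 20.5 CPM in females and 39.3, 30.9 and 32.7 CPM in males, with a log2 fold change of −0.82 ± 0.19 (SE) and an adjusted p of 0.00022 in DESeq2 and 0.0088 in edgeR. *rh50* had 26.0, 22.1 and 25.1 CPM in females and 53.0, 30.5 and 60.8 CPM in males, a difference of −1.02 ± 0.26 (SE; adjusted p = 0.0011 in DESeq2, 0.030 in edgeR). In both genes all male trunks were above all female trunks.

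Nfu_g_1_010310, one of the members without reads above the floor in embryos, had 10.3, 13.4 and 12.2 CPM in females and 32.7, 15.8 and 28.0 CPM in males, a log2 fold change of −1.16. Nfu_g_1_022748 and Nfu_g_1_010429 differed by −1.30 and −1.14. In both, male replicate 2 was nearest to the females, with 4.45 CPM next to at most 3.85 CPM in females for Nfu_g_1_022748 and 18.9 CPM next to at most 16.4 CPM for Nfu_g_1_010429.

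Among members with a symbol, the male-higher calls at 3 dph included 4 of the 6 intestinal members. *cdh17* differed by −0.71 ± 0.20 (SE; adjusted p = 0.0041 in DESeq2, 0.033 in edgeR), and *chia.6* by −1.0, *chia.3* (Nfu_g_1_001889) by −0.89 and *asah2* by −0.88, the last 3 called by DESeq2 alone. The muscle member *jph2* was called too, at −0.61. Of the liver and skin members none was called at 3 dph or at 0 dph. Without a single 3 dph library the DESeq2 adjusted p of *chia.6* was 0.14 (female replicate 1) and 0.15 (male replicate 1), and that of *chia.3* was 0.12 to 0.17 without female replicate 1 or 2 or male replicate 1 or 3. The call of *asah2* was lost without any library but male replicate 2 (0.11 to 0.34), and that of *jph2* without any but male replicate 3 (0.10 to 0.18). *f2* differed by −0.08 and *KRT23 (5 of 15)* by 0.22 at 3 dph.

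Over the whole intestine list, 11 of 20 tested genes were male-higher and 1 female-higher at 3 dph, and 6 of 20 and 0 at 0 dph. Male-higher shares at 3 and 0 dph were 5.19% and 1.2% of all genes, and 17.9% and 3.98% of genes above both gonads. The lists were chosen with earlier results of these data known. Several entries have the same symbol and may share reads, so these counts are a description. At 3 dph the intestine list summed to 394 to 399 CPM in females and 437 to 771 CPM in males. At 0 dph it summed to 754 and 811 CPM in females and 985 to 1823 CPM in males, without overlap at either age. The part of this level in the members' male-higher calls was not tested. In the liver list 5 of 27 tested genes were male-higher at 3 dph and 0 female-higher. Among genes above both gonads these shares were 17.9% and 0.082%. Male-higher at 3 dph were also 2 of 7 kidney, 3 of 24 connective tissue and 2 of 28 muscle genes. The same held for 2 of 23 skin, 1 of 22 immune and blood and 0 of 17 neuron genes. At 0 dph 4 of 23 skin genes were female-higher and 0 male-higher. The gonad and germ cell list summed to 168 to 193 CPM in female and 18.0 to 34.1 CPM in male 3 dph trunks, in the direction opposite to the members.

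*cdh17* and Nfu_g_1_014087 were the only members higher in males at both 0 and 3 dph, that is 11.8% of the 17 called at 0 dph and 6.25% of the 32 called at 3 dph. Nfu_g_1_014087 had 62.0 and 53.1 CPM in females and 74.8, 94.8 and 97.1 CPM in males at 0 dph. At 3 dph it had 30.6, 29.0 and 30.7 CPM in females and 64.5, 29.1 and 79.3 CPM in males, where male replicate 2 fell among the females. At 0 dph each lost its call without female replicate 1, female replicate 2, male replicate 2 or male replicate 3 (DESeq2 adjusted p of 0.24 to 0.67). At 3 dph *cdh17* lost its call without female replicate 2 (adjusted p = 0.052 in DESeq2) or male replicate 3 (0.058), and Nfu_g_1_014087 without any library but male replicate 2 (0.050 to 0.29).

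**Figure D5:**
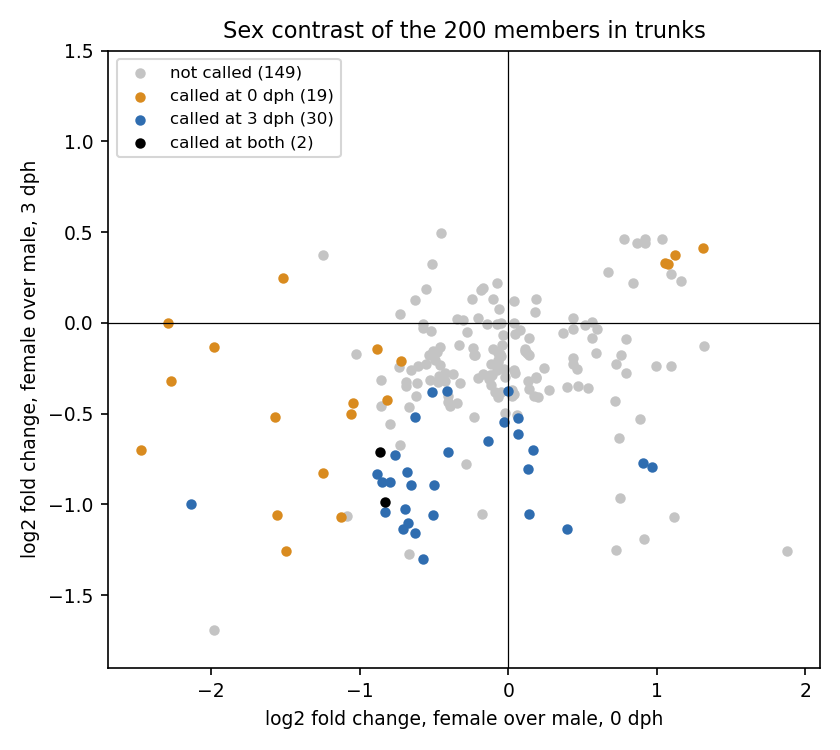
Log2 fold change of females over males at 0 dph (horizontal) and 3 dph (vertical) for the 200 members, coloured by DESeq2 calls at an adjusted p under 0.05; values below 0 are higher in males. Of the members, 164 lie below 0 at 3 dph, 32 are called at 3 dph, all male-higher, 21 at 0 dph, and 2 at both ages.

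A change of the sex difference with trunk age was tested as an interaction of sex and age over the 11 trunk libraries, for which 199 members had an adjusted p. The rule limited the mean change over both sexes, so genes with a large change in a single sex were left out. The number of members called, set against all genes, is therefore a description. A single member became more female-biased at 3 dph and a single member less so (0.503% of those tested each), against 6.25% and 2.48% of all genes. Among the 2438 tested genes whose lower trunk mean exceeded both gonads by at least 1, these shares were 0.574% and 4.02%, the first close to that of the members. The edgeR test called 0 members in either direction, with a smallest adjusted p of 0.0798. Its shares were 3.04% and 1.1% of all genes, and 0.164% and 1.48% of genes above both gonads. Unadjusted p in it was under 0.05 for 19 of 200 members, against 4195 of 21435 genes.

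Nfu_g_1_009078 had 68.5 and 156 CPM in female and 308, 195 and 207 CPM in male 0 dph trunks, but 268, 182 and 171 CPM in female and 138, 160 and 170 CPM in male 3 dph trunks. Its interaction was 1.64 ± 0.48 (SE; DESeq2 adjusted p = 0.013). Nfu_g_1_007417 had 24.5 and 12.4 CPM in females and 9.18, 16 and 11.3 CPM in males at 0 dph. At 3 dph it had 5.78, 3.95 and 8.11 CPM in females and 13.5, 10.5 and 14.8 CPM in males, with an interaction of −1.51 ± 0.53 (adjusted p = 0.049).

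The call of Nfu_g_1_009078 was lost without female 3 dph replicate 1 (DESeq2 adjusted p = 0.068) and that of Nfu_g_1_007417 without any of 7 of the 11 libraries. Next in order came Nfu_g_1_012780, Nfu_g_1_010969 and Nfu_g_1_012334, with interactions of −1.75, 0.80 and −1.97 and adjusted p-values of 0.060, 0.066 and 0.068 in DESeq2.

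The nearest groups of trunk genes had sex calls of their own, given first for 3 dph. Of the members 16% were male-higher and 0 female-higher, whereas the 433 genes ranked below them were male-higher in 64 cases (14.8%) and female-higher in 0. Genes that met the same margin but were higher at 0 dph by at least 1 were male-higher in 101 of 200 cases (50.5%), and those higher at 3 dph in 14 of 152 (9.21%). Median log2 fold changes at 3 dph were −0.28 in members, −0.31 in the genes ranked below, −0.73 in genes higher at 0 dph and −0.19 in genes higher at 3 dph. In the contrast at 0 dph, male-higher shares in the same order were 8.5%, 3.70%, 17.5% and 5.26%. Female-higher shares there were 2%, 0.693%, 1.5% and 2.63%. Whether these groups differ was not tested.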

How the data were processed

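The deposited table holds counts of reads per gene for all 19 libraries. QIAzol-extracted RNA was made into TruSeq libraries. The authors filtered reads with sga, mapped them with STAR and counted with summarizeOverlaps, and the submitters' processing notes name bcl2fastq 1.8.4. Counting mode and strand setting are not given in the sources used here, so overlapping, antisense and near-identical genes cannot be told apart. Gene symbols were taken from the part of the study's annotation available here, which paired 2830 of 26740 identifiers with a symbol. None of the identifiers matched the RefSeq table, which was used by symbol for neighbouring genes only.

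Members were chosen with CPM from column totals and a pseudocount of 1 on the log2 scale. Members and marker lists were chosen with earlier results of these data known. Sex was tested within each stage on counts with DESeq2 1.42.0 (Wald test, female over male, Benjamini-Hochberg over all genes, R 4.3.3), and the interaction over the 11 trunk libraries. Genes with an adjusted p counted as tested: 163 members at 10 dpf, 200 at 0 and 3 dph. Alternatives were edgeR 4.0.16 (quasi-likelihood test), TMM factors, at least 10 counts, no independent filtering, 1 fit over 17 libraries, a block for replicate number, and the omission of single libraries. The steps were tested on simulated data. Replicate libraries differed by far more than counting noise (chi-square per degree of freedom 11.7 to 148).

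At 10 dpf the deviations of libraries with the same replicate number correlated at 0.458, 0.197 and 0.593, all above 0.1, so the numbers were taken as pairs there, on the basis of the data and not of the labels. Floors and ranges cover counting error only.

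The text names the 10 members with the largest margin, every member with a gene symbol, the 5 called members with the smallest adjusted p per stage and direction, the 5 with the smallest adjusted p of the interaction, and the genes nearest each limit. Others are there as the most counted, the only ones of their kind, or as stated.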

Additional observations from a re-analysis of the deposited data

Results flagged for a closer look

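Embryo male replicate 1 stood apart from the other 5 embryos by its median member level of 2.85 on the log2(CPM + 1) scale, against 1.23 to 1.52. The levels at 10 dpf were used to choose the members, so this is a description and no test.

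The sex difference of Nfu_g_1_009078 differed between 3 and 0 dph, with an interaction of 1.64, and that of Nfu_g_1_007417 with an interaction of −1.51, both past the threshold in DESeq2 and neither in edgeR.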

How the results depend on the processing

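The members' median log2 fold change between the sexes ranged from −1.271 to 0.0704 at 10 dpf and from −0.5433 to 0.0303 at 0 dph with single libraries left out, above 0 only without male replicate 1 at 10 dpf and without female replicate 1 at 0 dph. No direction of a gene named in a sex contrast was reversed, and these results stayed on their side of the threshold in 233 cases, passed it in 10 and lost it in 100, and 1 had no adjusted p. With edgeR, members called female-higher and male-higher at 0 dph were 0 and 0, male-higher at 3 dph 9, and interactions 0 in each direction. In 1 fit over 17 libraries, male-higher members were 11 at 10 dpf (0.415% of all genes), 9 at 0 dph (2.89%) and 11 at 3 dph (2.81%), and female-higher members 0 at 0 dph (3.98%). The labels give no shared origin for libraries with the same replicate number at any stage. Deviations of such libraries correlated at −0.123 and −0.232 at 0 dph, and at −0.187, 0.166 and 0.0173 at 3 dph. With the replicate number as a block, 3 members were male-higher at 10 dpf (0.224% of all genes). At 0 dph 0 were female-higher and 8 male-higher (0.916% and 0.317%), and at 3 dph 36 were male-higher (2.49%). Interactions were then 4 towards more (2.76%) and 3 towards less female bias (1.53%). Interactions towards less female bias were 2 with TMM factors (3.04%) and 0 without independent filtering (1.87%). The cause was not tested.

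Leaving out each library in turn, male-higher members numbered 0 to 7 at 10 dpf, 4 to 28 at 0 dph and 8 to 50 at 3 dph. Female-higher members numbered 0 to 2, 1 to 6 and 0 to 6. Interactions numbered 0 to 9 towards more and 0 to 14 towards less female bias. The highest interaction counts came without 1 of the 2 female 0 dph libraries, where a single female library stood for its group. These counts cannot show whether members exceeded all genes, since the spread within that group was not measured. The members' median interaction was −0.32 without female 0 dph replicate 1 and 0.22 without female 0 dph replicate 2, against −0.12 with all libraries. With at least 2 libraries per group, at most 4 members (2%) went towards more female bias, against 5.17% of all genes. Those 4 were found without male 3 dph replicate 1. Towards less it was at most 6 (3%), without male 3 dph replicate 2, against 2.1%. Of the 200 members, 173 to 199 kept their place without 1 library, lowest without the ovary. It was kept by 176 after median-of-ratios and 173 after TMM scaling, and by 160 and 138 with pseudocounts of 0.1 and 10. From females alone 154 kept it and from males alone 162. Depth limited the lowest values: with all libraries thinned to the smallest total, 5 members were at the floor at 10 dpf and 39 in both gonads, against 3 and 25.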
